A study of Mus musculus with 20 samples.

Results

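The genes described here encode the mitochondrial ribosomal proteins, and they were taken as every probe whose annotated symbol is Mrpl or Mrps followed by digits and at most 1 letter. The rule found 76 of the 20868 probes, which stand for 75 of the 16966 named genes of the array, 46 for the large subunit (Mrpl) and 29 for the small subunit (Mrps). RNA of whole testis was measured in 20 male mice on Agilent 22K Mouse 2-colour microarrays, and the values are log2 signals. There were 4 groups of 5 mice: Xpc-/- mice on C57BL/6 given 1 oral dose of 13 mg/kg bw benzo(a)pyrene (Xpc-/- B[a]P), Xpc-/- mice given the solvent sunflower oil (Xpc-/- control), wild type C57BL/6 mice given the same dose (Wt B[a]P), and wild type mice given sunflower oil (Wt control). Testes were taken 4 days after the gavage. The sources used here state no age of the mice. B[a]P, found in smoke and charred food, is turned by the body into metabolites that attach to DNA, and Xpc is a sensor that starts the excision of such adducts across the genome. The Xpc-/- mice lack Xpc in every cell type, so the germ cells and the somatic cells of the testis share the defect.

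Mitochondria keep a small genome that encodes core subunits of the respiratory chain, and a ribosome of their own translates it. The RNA of this mitoribosome is made in the organelle, but all of its proteins are encoded in the nucleus, made in the cytosol and imported. The small subunit holds the messenger RNA and checks the pairing with transfer RNA, and the large subunit joins the amino acids. Many of the proteins descend from those of bacterial ribosomes, and others occur only in mitochondria, where they took over space that ribosomal RNA fills in bacteria. In the testis the make-up and shape of mitochondria change as germ cells pass from spermatogonia through meiosis to sperm.

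The arrays were first checked against their labels. The probe of Xpc read between 6.26 and 6.99 in the 10 Xpc-/- mice, against 7.10 to 7.64 in the 10 Wt mice, with a log2 difference of -0.70 (SE 0.09, limma adjusted p = 0.000298). No source used here places this probe relative to the deleted part of the gene. Protamine and transition protein probes of spermatids lay near the top of the range (Prm1 at 15.93, Tnp1 at 15.64), and 3 epididymis markers, Lcn5, Lcn8 and Adam7, lay near its bottom at 6.50 to 6.76 in these whole testis samples. A pair of arrays differed from the rest: on the first principal component Xpc-/- control 1 scored 38.4 and Xpc-/- control 2 scored 40.5, while the other 18 arrays scored from -18.7 to 8.10. Results are therefore also given without this pair of arrays.

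Each of the 75 genes had a probe with a value in every mouse, and none was filtered out. Proteins of the mitoribosome that no annotated probe stands for, such as Mrpl19, Mrpl47 and Mrpl48, were not covered. Signals averaged over all mice ran from 6.51 to 13.08 with a median of 9.36, against a median of 7.54 over all probes. A signal depends on the probe as well as on the amount of RNA, so genes are not ranked by it. The brightest probes were those of Mrpl20 (13.08), a homologue of bacterial L20, Mrpl54 (12.37) and Mrpl55 (12.13). The dimmest were those of Mrpl57 (6.51), Mrps18b (6.66) and Mrpl41 (6.66), which lay near the low end of the array. The spread between mice of a group (SD on the log2 scale) had a median of 0.20 over the 75 genes and 0.19 over all probes, and ran from 0.08 for Mrpl12, the stalk protein that draws in translation factors, to 0.37 for Mrpl23.

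After B[a]P, most mitochondrial ribosomal protein genes differed little between exposed and control mice, and a few moved in either direction. At an adjusted p under 0.05, Mrps12 and Mrpl43 rose by 1.44-fold and 1.38-fold over both genotypes (10 exposed against 10 control mice). Mrpl10, Mrpl53, Mrpl34, Mrpl35, Mrpl1 and Mrpl14 fell to between 0.786 and 0.839 of the control level. The 8 called genes are 10.7% of the 75, against 5.68% of all probes called in this comparison. Of all probes 3.57% rose and 2.12% fell. In whole tissue, fewer cells of a type and less RNA per cell cannot be told apart.

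**Figure D1:**
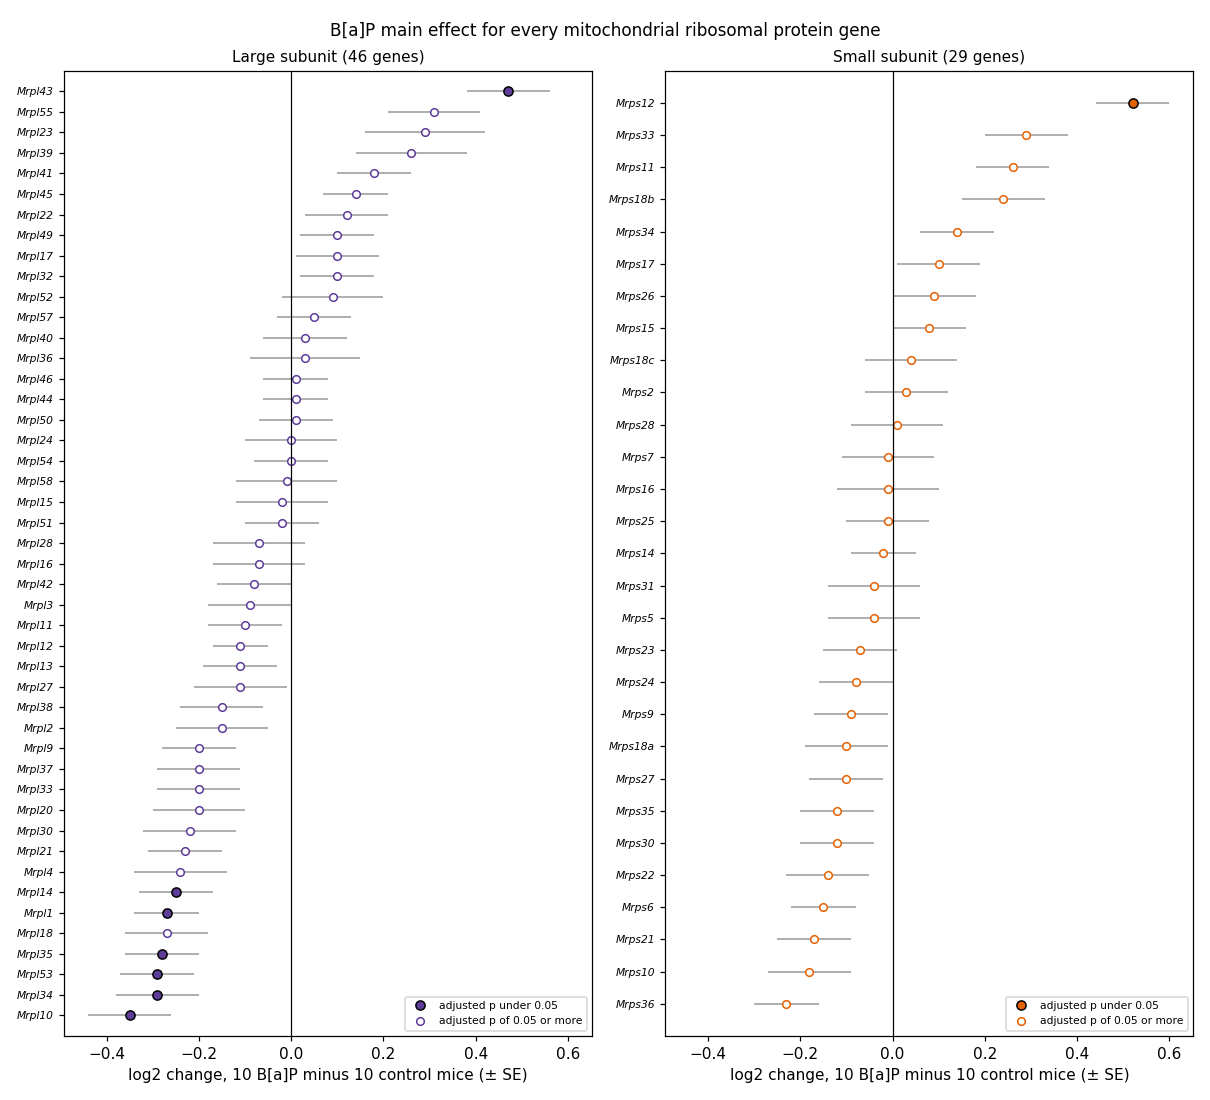
The log2 change over both genotypes (10 B[a]P minus 10 control mice, x axis, bars are SE) is plotted for each of the 46 large subunit genes (left) and 29 small subunit genes (right), with filled points for an adjusted p under 0.05. Filled points are Mrpl43 at 0.47 and Mrps12 at 0.52 on the high side and 6 large subunit genes between -0.35 and -0.25 on the low side.

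The share of called genes has to be read beside the signal level. Probes were ranked by signal and split into 4 bins of 5217. In the brightest bin (log2 signal from 8.90 upwards) 838 probes were called, or 16.1%. This bin holds 45 of the 75 genes, and 7 of them were called, or 15.6%. Mrpl35 was the only gene called outside it, in the second bin from the bottom, where 0.92% of all probes were called. At this signal level the share of called mitochondrial ribosomal protein genes was thus near that of all probes.

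Mrps12 is the homologue of bacterial S12, which sits at the decoding centre where codon and anticodon are checked, and it had the largest change of the 75 genes. Its log2 signals were 10.92, 10.97, 11.11, 10.97 and 11.05 in Xpc-/- B[a]P mice, against 10.67, 10.46, 10.62, 10.51 and 10.38 in Xpc-/- control mice. In Wt B[a]P mice they were 11.16, 11.08, 11.26, 10.85 and 10.71, against 10.34, 10.37, 10.58, 10.65 and 10.29 in Wt control mice. The lowest of the 10 exposed mice lay above the highest of the 10 control mice. This held for no other of the 75 genes, and for 0.412% of all probes. The change was 0.52 over both genotypes (SE 0.08, 95% interval 0.36 to 0.68, limma adjusted p = 0.000138), 0.48 in Xpc-/- mice (adjusted p = 0.0317) and 0.57 in Wt mice (adjusted p = 0.0113). Without Xpc-/- control 1 and 2 it was 0.54 (adjusted p = 7.02e-05).

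Mrpl43, a large subunit protein that bacteria lack, came next. It read 12.16, 12.04, 11.96, 11.87 and 12.02 in Xpc-/- B[a]P mice, against 11.77, 11.48, 11.80, 11.57 and 11.42 in Xpc-/- control mice. Wt B[a]P mice had 12.26, 12.18, 12.03, 11.74 and 12.02, against 11.64, 11.66, 11.66, 11.61 and 10.98 in Wt control mice. Exposed and control mice did not overlap within either genotype, but the lowest exposed mouse (11.74) lay below the highest control mouse (11.80) across genotypes. Wt control 5 lay far below its group. The change was 0.47 over both genotypes (SE 0.09, 95% interval 0.29 to 0.65, limma adjusted p = 0.00149), 0.40 in Xpc-/- mice (adjusted p = 0.121) and 0.54 in Wt mice (adjusted p = 0.0374).

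Both genes start head to head with a gene on the other strand, so the short stretch between the starts is shown, from GRCm38.p6 as given by RefSeq. It runs 5′ to 3′ toward the Mrp gene, and capitals mark exact matches, on either strand, to a GC box (GGGCGG) or to the ETS family motif (CCGGAAG). The Mrps12 stretch is chr7:28741822-28741956 on the minus strand, the 135 bases between Mrps12 and the first annotated base of Sars2, and it holds a GC box, while the ETS match of Mrps12 begins after the start. The Mrpl43 stretch is chr19:45006443-45006557 on the minus strand, 115 bases that a longer annotated transcript of Twnk also covers, and it holds the ETS motif 2 times.
Mrps12: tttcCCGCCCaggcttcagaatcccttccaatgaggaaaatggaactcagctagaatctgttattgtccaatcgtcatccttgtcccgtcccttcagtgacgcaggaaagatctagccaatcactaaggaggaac
Mrpl43: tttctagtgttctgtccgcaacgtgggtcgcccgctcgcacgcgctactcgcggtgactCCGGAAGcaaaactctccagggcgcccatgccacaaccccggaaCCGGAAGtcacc

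**Figure D2:**
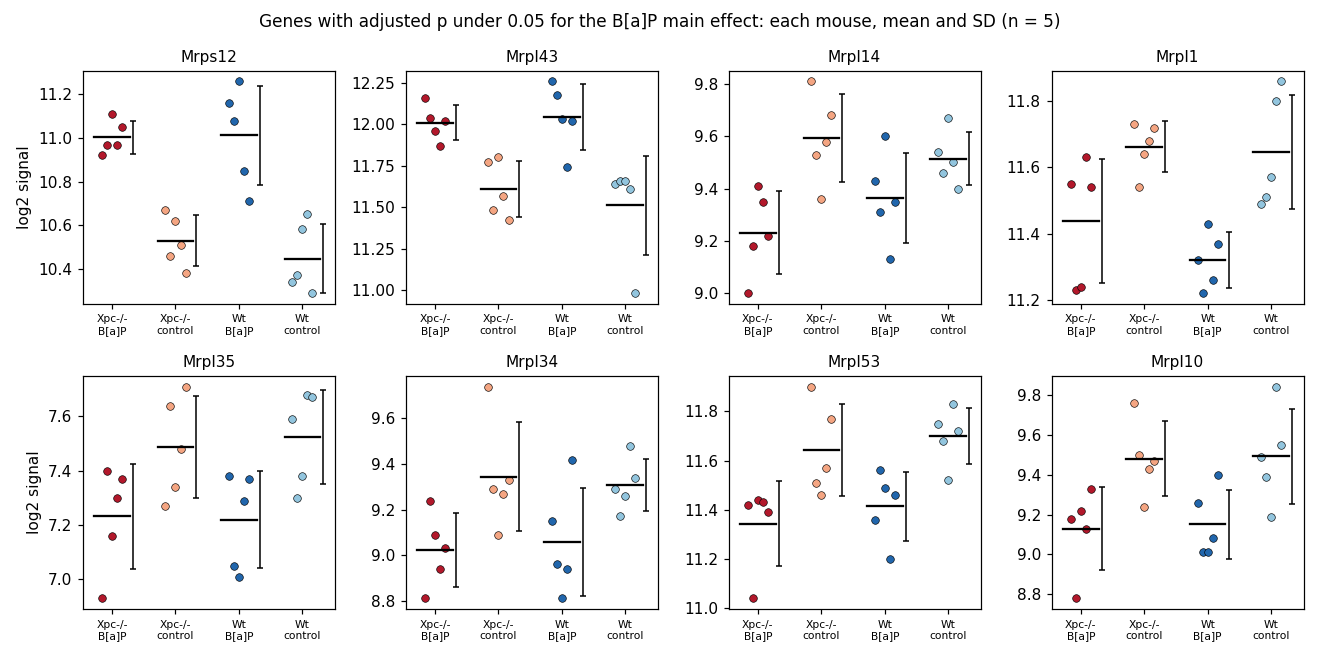
Log2 signals of the 8 genes with an adjusted p under 0.05 for B[a]P over both genotypes are drawn for each mouse (points), with the group mean (line) and SD (bar, n = 5), in Xpc-/- B[a]P, Xpc-/- control, Wt B[a]P and Wt control mice. Each panel has its own y axis. All 10 exposed mice lie above all 10 control mice for Mrps12 (lowest exposed 10.71, highest control 10.67), while the groups overlap across genotypes for the other 7.

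Among the genes that fell, Mrpl10 changed most. It anchors the stalk of Mrpl12 copies to the large subunit, to which translation factors bind. Its log2 signals were 9.18, 8.78, 9.22, 9.13 and 9.33 in Xpc-/- B[a]P mice, against 9.76, 9.50, 9.24, 9.43 and 9.47 in Xpc-/- control mice. Wt B[a]P mice had 9.26, 9.01, 9.01, 9.08 and 9.40, against 9.49, 9.39, 9.19, 9.84 and 9.55 in Wt control mice. Each of the 10 exposed mice lay below the control mean of its genotype, although the ranges overlapped. The change was -0.35 (SE 0.09, 95% interval -0.53 to -0.17, limma adjusted p = 0.0160), and it was nearly the same in Xpc-/- mice (-0.35) and in Wt mice (-0.34).

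Mrpl1 forms the stalk at the exit site that moves spent transfer RNA off the ribosome. It read 11.55, 11.23, 11.24, 11.63 and 11.54 in Xpc-/- B[a]P mice, against 11.73, 11.54, 11.64, 11.68 and 11.72 in Xpc-/- control mice. In Wt B[a]P mice the values were 11.32, 11.22, 11.43, 11.26 and 11.37, against 11.49, 11.51, 11.57, 11.80 and 11.86 in Wt control mice. The Wt groups did not overlap, while 2 of the 5 Xpc-/- B[a]P mice lay clearly below the rest of their group. Over both genotypes the change was -0.27 (SE 0.07, adjusted p = 0.0237). Mrpl53, which bacteria lack, fell by 0.29 (SE 0.08, adjusted p = 0.0207).

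The Mrpl53 signals were 11.42, 11.04, 11.44, 11.43 and 11.39 in Xpc-/- B[a]P mice, against 11.90, 11.51, 11.46, 11.57 and 11.77 in Xpc-/- control mice. They were 11.36, 11.56, 11.49, 11.20 and 11.46 in Wt B[a]P mice, against 11.75, 11.68, 11.52, 11.83 and 11.72 in Wt control mice. The Xpc-/- groups did not overlap, by a narrow margin, and the Wt groups overlapped by 1 mouse on each side. Mrpl10 and Mrpl53 kept an adjusted p under 0.05 under each of the 8 other ways of fitting and without any of the 20 mice in turn, as did Mrps12 and Mrpl43, while Mrpl1 missed it without Wt control 4 (0.058 at the highest) and without Wt control 5.

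Mrpl35, Mrpl34 and Mrpl14 passed the test narrowly, and with each of the 20 mice left out in turn they passed 9, 5 and 5 times in that order. Mrpl35, a homologue of bacterial L35, had a dim probe, with 6.93, 7.40, 7.16, 7.30 and 7.37 in Xpc-/- B[a]P mice, against 7.27, 7.64, 7.34, 7.48 and 7.71 in Xpc-/- control mice. Its values were 7.38, 7.05, 7.01, 7.29 and 7.37 in Wt B[a]P mice, against 7.59, 7.30, 7.38, 7.68 and 7.67 in Wt control mice. The groups overlapped in both genotypes, and the change was -0.28 (SE 0.08, limma adjusted p = 0.0411).

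Mrpl34, the homologue of the small basic bacterial protein L34, read 8.81, 9.24, 9.09, 8.94 and 9.03 in Xpc-/- B[a]P mice, against 9.74, 9.29, 9.09, 9.27 and 9.33 in Xpc-/- control mice. It read 9.15, 8.96, 8.81, 8.94 and 9.42 in Wt B[a]P mice, against 9.29, 9.17, 9.26, 9.48 and 9.34 in Wt control mice. Here 9 of the 10 exposed mice lay below the control mean of their genotype, Wt B[a]P 5 being the exception. The change was -0.29 (SE 0.09, limma adjusted p = 0.0448), and without Xpc-/- control 1 and 2 it was -0.23 (adjusted p = 0.0703).

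Mrpl14 lies at the face that meets the small subunit and is bound by the assembly factor Malsu1. Its signals were 9.0, 9.18, 9.41, 9.35 and 9.22 in Xpc-/- B[a]P mice, against 9.81, 9.53, 9.36, 9.58 and 9.68 in Xpc-/- control mice. Wt B[a]P mice had 9.43, 9.31, 9.60, 9.13 and 9.35, against 9.54, 9.46, 9.67, 9.50 and 9.40 in Wt control mice. The change of -0.25 (SE 0.08, limma adjusted p = 0.0449) was made up of -0.36 in Xpc-/- mice and -0.15 in Wt mice. These 2 effects did not differ beyond the spread between mice (difference -0.21, 95% interval -0.52 to 0.10, adjusted p = 0.999). Without Xpc-/- control 1 and 2 the change was -0.23 (adjusted p = 0.0568).

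The 150 bases before the starts of Mrpl10 and Mrpl34 are shown next to those of the genes that rose, again from RefSeq on GRCm38.p6 and 5′ to 3′. The Mrpl10 stretch, chr11:97041432-97041581 on the plus strand, carries the motif of NRF1 (GCGCATGC, capitals), a factor known for many nuclear genes of mitochondria. The Mrpl34 stretch, chr8:71464776-71464925 on the plus strand, carries the ETS motif (capitals) that also stands before Mrpl43.
Mrpl10: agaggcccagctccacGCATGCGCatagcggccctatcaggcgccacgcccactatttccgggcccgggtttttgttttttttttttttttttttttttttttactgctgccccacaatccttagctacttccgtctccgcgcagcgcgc
Mrpl34: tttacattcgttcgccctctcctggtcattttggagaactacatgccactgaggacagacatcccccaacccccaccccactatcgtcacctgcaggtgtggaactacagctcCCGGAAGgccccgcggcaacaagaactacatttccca

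Of the 75 genes, 67 had an entry among RefSeq promoters (250 bases before to 50 after a start), with 70 promoters in all. The ETS motif was in 35.7% of these 70 promoters, in 12.9% of the promoters of all genes of the array and in 8.86% of all 32851 promoters. The promoters of cytosolic ribosomal proteins held it in 38.5%. NRF1 (GCGCATGC) was matched in 11.4%, against 3.96% and 2.71%, and YY1 (AAGATGGCG) in 11.4%, against 2.08% and 1.40%. The GC box was in 51.4%, against 51.7% and 35.7%. Matches were counted on both strands and describe letters, not binding. They were found with genes that moved either way: of those that rose, Mrps12 and Mrpl43 held the ETS motif and the GC box, and of those that fell, Mrpl34 and Mrpl53 held the ETS motif, Mrpl1 and Mrpl14 the GC box, Mrpl10 that of NRF1 and Mrpl35 that of YY1. The ETS match of Mrps12 and the YY1 match of Mrpl35 lie after the start, and every other gene and motif named here has a match before it.

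The next smallest adjusted p-values and the other large changes were examined too. Mrps33, a mitochondria-specific protein of the small subunit, had a change of 0.29 (SE 0.09, limma adjusted p = 0.0503), and Mrps11, a homologue of bacterial S11, of 0.26 (SE 0.08, adjusted p = 0.0504). Mrps36, named after its values were seen, had -0.23 (SE 0.07, adjusted p = 0.0716). Mrpl55 had 0.31 (SE 0.10, adjusted p = 0.0799) and Mrpl23, which lies at the mouth of the tunnel through which new proteins leave, 0.29 (SE 0.13, adjusted p = 0.234). For Mrps33, Mrpl55 and Mrpl23 the value was smaller without the pair of arrays that stood apart, with 0.20 for Mrps33 (adjusted p = 0.109). Mrpl23 read 8.67 and 8.89 in Xpc-/- control 1 and 2, against 9.69 to 9.75 in the other 3 Xpc-/- control mice, and without them its change was 0.10 (adjusted p = 0.614). Likewise Mrpl55 read 11.45 and 11.44 there, against 12.07 to 12.37, and its change without them was 0.16 (adjusted p = 0.254). On the low side Mrpl18, the homologue of a bacterial protein that binds 5S ribosomal RNA, had -0.27 (SE 0.09, adjusted p = 0.0918).

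Without Xpc-/- control 1 and 2, 12 of the 75 genes passed the test, where 11.5% of all probes did. Mrps12, Mrpl43 and Mrps11 (0.25, adjusted p = 0.0344) rose. Besides Mrpl10, Mrpl35, Mrpl1 and Mrpl53, the genes Mrpl20 (-0.35, adjusted p = 0.00308), Mrps10 (-0.26, adjusted p = 0.0452), Mrpl38 (-0.26, adjusted p = 0.0251), Mrpl21 (-0.24, adjusted p = 0.0452) and Mrps21 (-0.23, adjusted p = 0.0464) then fell. Mrpl20 had values of 12.55 and 12.74 in these 2 control mice, against 13.32 to 13.47 in the other 3.

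The 2 subunits were set side by side. Of the 46 large subunit genes, 1 rose and 6 fell (15.2% called), and the median change was -0.07. Of the 29 small subunit genes, 1 rose and none fell (3.45% called), with a median of -0.02. Over all probes 5.68% were called, with 16.1% in the brightest bin, and the median was -0.01. Without Xpc-/- control 1 and 2 the shares lay closer together: 1 large subunit gene rose and 7 fell (17.4% called), 2 small subunit genes rose and 2 fell (13.8%), and 11.5% of all probes were called. The medians in that fit did not lie closer together, at -0.09 in the large and -0.02 in the small subunit. With all mice and without adjustment, 5 large subunit genes were higher and 13 lower at p under 0.05 (39.1% of 46), and 4 small subunit genes were higher and 2 lower (20.7% of 29), where 18.5% of all probes had such a p. The median signal was 9.51 over the large and 8.89 over the small subunit genes. Neither the 2 subunits nor the share of all probes were matched for signal level. Whether the subunits differ in these counts or medians was not tested. Structures of the mammalian mitoribosome place Mrps30 and Mrps18a in the large subunit, and Mrps36 belongs to the oxoglutarate dehydrogenase complex. With the genes assigned this way, the large subunit had 7 of 48 genes called and a median of -0.08, and the small subunit 1 of 26 and a median of -0.01.

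Averaged over the 46 large subunit genes of a mouse, the deviation from the Wt control mean ran from -0.09 to -0.05 in Xpc-/- B[a]P mice, against -0.15 to 0.04 in Xpc-/- control mice. In Wt B[a]P mice it ran from -0.12 to -0.02, against -0.03 to 0.02 in Wt control mice. For the 29 small subunit genes the ranges were -0.05 to 0.06 in Xpc-/- B[a]P mice, against -0.12 to 0.04 in Xpc-/- control mice. They were -0.03 to 0.04 in Wt B[a]P mice, against -0.02 to 0.02 in Wt control mice. All of these groups overlapped. For the large subunit in Xpc-/- mice the overlap rested on Xpc-/- control 2 at -0.15, one of the pair of arrays that stood apart, and the other 4 control mice, at -0.03 to 0.04, lay above every exposed mouse.

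The genes were also split by descent. Of the 45 with a bacterial homologue 1 rose and 5 fell (13.3% called), with a median change of -0.09. Of the 26 that occur only in mitochondria 1 rose and 1 fell (7.69% called), with a median of 0.01. Over all probes 5.68% were called, with 16.1% in the brightest bin. The other 4 genes were not classed, and none of them was called. Per mouse, the average over bacterial homologues was -0.06 ± 0.03 in Xpc-/- B[a]P mice and -0.01 ± 0.04 in Xpc-/- control mice, and -0.07 ± 0.06 in Wt B[a]P mice and 0.00 ± 0.02 in Wt control mice (SD, n = 5 each). The average over mitochondria-specific genes was -0.01 ± 0.05 in Xpc-/- B[a]P mice and -0.04 ± 0.10 in Xpc-/- control mice, and 0.01 ± 0.03 in Wt B[a]P mice and 0.00 ± 0.02 in Wt control mice. Exposed and control mice overlapped for both classes in each genotype. For bacterial homologues in Wt mice the overlap rested on Wt B[a]P 5 at 0.02. The other Wt B[a]P mice, at -0.15 to -0.06, lay below every Wt control mouse (-0.03 to 0.02).

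**Figure D3:**
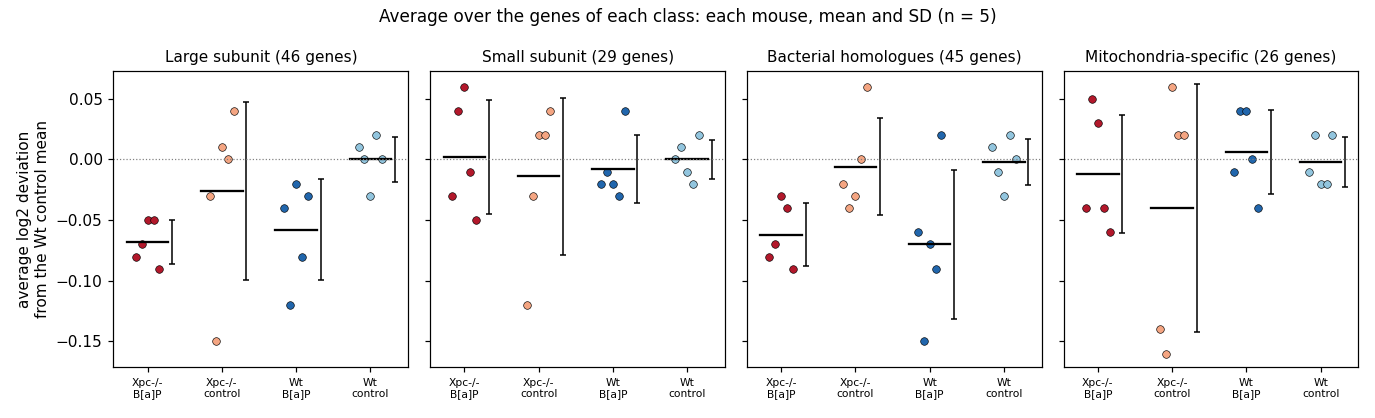
The average log2 deviation from the Wt control mean (y axis) is plotted for each mouse (points), with the group mean (line) and SD (bar, n = 5), over the genes of the large subunit, the small subunit, the bacterial homologues and the mitochondria-specific proteins. All averages lie between -0.16 and 0.06, and exposed and control mice overlap in each panel.

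The response was compared between the genotypes. In Xpc-/- mice alone, Mrps12 was called and no other gene of the 75 (0.647% of all probes were called), and 20 genes, or 26.7%, had an unadjusted p under 0.05, where 14.3% of all probes did. In Wt mice alone, Mrps12 and Mrpl43 were called (0.695% of all probes), and 11 genes, or 14.7%, had an unadjusted p under 0.05, where 10.7% of all probes did. The shares of all probes were not matched for signal level, and 45 of the 75 genes lay in the brightest bin. These calls within a genotype hung on single mice: Mrps12 missed the threshold in Xpc-/- mice without control 4 or 5 or B[a]P 2, 3 or 4, and in Wt mice without control 5 or B[a]P 1. Mrpl43 was called in Wt mice in no fit without control 1, 2, 4 or 5 or B[a]P 1, 2, 3 or 5. By their ranges, 3 genes did not overlap between exposed and control Xpc-/- mice, Mrps12 and Mrpl43 being higher and Mrpl53 lower, against 2.29% of all probes. In Wt mice 4 genes did not overlap, Mrps12 and Mrpl43 being higher and Mrpl1 and Mrpl38 lower, against 4.26% of all probes.

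The change had the same direction in both genotypes for 55 of the 75 genes (18 higher and 37 lower), or 73.3%, against 63.7% of all probes. Across the 75 genes, which are not independent replicates, the changes in Xpc-/- and Wt mice correlated with r = 0.728 and rho = 0.678, against 0.499 and 0.439 across all probes. The 75 genes had a higher median signal (9.36, against 7.54 over all probes). Neither the share with the same direction nor the correlations were matched for signal level. All arrays share a reference pool and were normalized together.

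**Figure D4:**
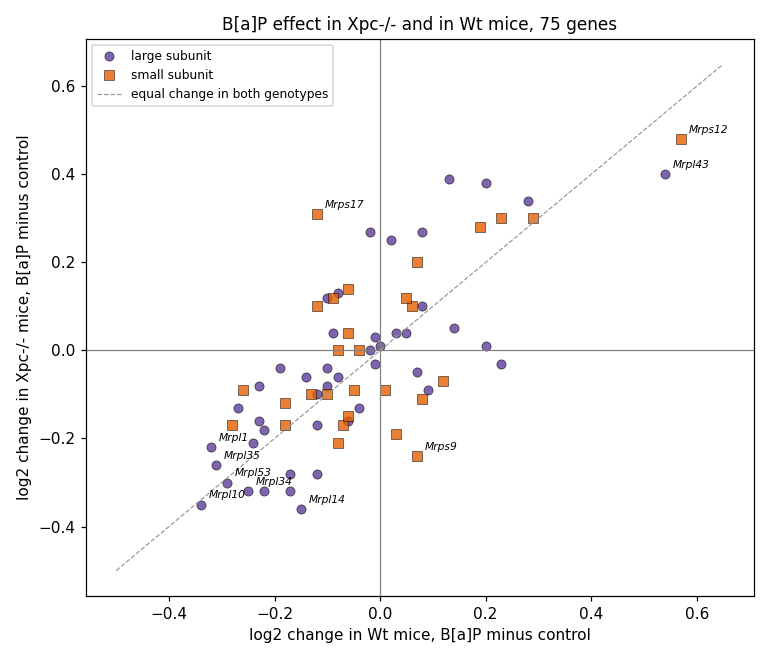
The log2 change in Xpc-/- mice (y axis, 5 B[a]P minus 5 control) is plotted against that in Wt mice (x axis) for the 75 genes, with circles for the large and squares for the small subunit and a dashed line for equal changes. Mrps12 (0.48 in Xpc-/-, 0.57 in Wt) and Mrpl43 (0.40 and 0.54 in the same order) lie apart at the upper right, and Mrps17 (0.31 and -0.12) lies farthest above the line.

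None of the 75 genes differed in its response between Xpc-/- and Wt mice at an adjusted p under 0.05, and neither did any probe of the array (0.0%). Without adjustment, 1 of the 75 genes (1.33%) and 3.11% of all probes had p under 0.05. This gene was Mrps17, a homologue of bacterial S17 that binds ribosomal RNA, with a difference of 0.43 between the effects (95% interval 0.08 to 0.78, limma adjusted p = 0.999). It had 8.34, 8.60, 8.42, 8.66 and 8.24 in Xpc-/- B[a]P mice, against 7.66, 8.30, 8.15, 8.21 and 8.37 in Xpc-/- control mice. It had 8.30, 8.27, 8.58, 8.31 and 8.10 in Wt B[a]P mice, against 8.48, 8.54, 8.28, 8.47 and 8.39 in Wt control mice. The groups overlapped in both genotypes, and the value of 7.66 came from Xpc-/- control 1. Next was Mrps9, a homologue of bacterial S9, with -0.31 (95% interval -0.62 to 0.01, limma adjusted p = 0.999).

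Xpc-/- and Wt mice did not differ in any of the 75 genes at an adjusted p under 0.05. Over both treatments 0.0192% of all probes were called, in unexposed mice 0.0% and in exposed mice 0.00479%. Without adjustment, 5 of the 75 genes had p under 0.05 over both treatments, 2 in unexposed mice and 1 in exposed mice. These are 6.67%, 2.67% and 1.33% of the genes, against 6.55%, 4.44% and 4.33% of all probes in the same order. The smallest p over both treatments was that of Mrpl13, a homologue of bacterial L13, with -0.20 (SE 0.08, 95% interval -0.36 to -0.04, limma adjusted p = 0.744). It was followed by Mrps5, which lines the entry path of messenger RNA, with 0.26 (SE 0.10, 95% interval 0.05 to 0.47, adjusted p = 0.744). Mrps5 read 9.0 and 9.24 in Xpc-/- control 1 and 2, against 8.26 to 8.46 in the other 3 Xpc-/- control mice, and without this pair the difference was 0.11. Over the 75 genes the genotype differences lay between -0.22 and 0.26 with a median of -0.01.

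Mrpl40 was the only gene with 2 probes. The brighter one had a change of 0.03 (SE 0.09, limma adjusted p = 0.895) and the dimmer one of 0.23 (SE 0.11, adjusted p = 0.260). The dimmer probe read 8.94 and 8.85 in Xpc-/- control 1 and 2, against 9.54 to 9.87 in the other 3 Xpc-/- control mice, and neither probe passed the test. Without this pair of arrays the brighter probe had a change of -0.09 (adjusted p = 0.547).

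Of the 67 genes with a promoter entry, 25 start head to head with a gene on the other strand within 1000 bases. Of the 24 partners with a probe 1 was called, where 5.68% of all probes were called. In no pair were both genes called. Member and partner had changes of the same sign in 10 of the 24 pairs, where Mrpl46 and Mrps11, whose starts lie 42 bases apart, count from both sides. Sars2, the mitochondrial seryl-tRNA synthetase gene whose start lies 147 bases from that of Mrps12, had a change of 0.08 (SE 0.08, limma adjusted p = 0.626). Twnk, the helicase of mitochondrial DNA replication with a start 116 bases from that of Mrpl43, had 0.02 (SE 0.07, adjusted p = 0.921). Tmem63b, 131 bases from Mrpl14, had 0.04 (SE 0.08, adjusted p = 0.867). Like most probes of the array, the partners of these 3 called genes showed no change past the threshold. The probes of Twnk and Tmem63b were dim, with mean signals of 6.98 and 7.13. They lay in the second bin from the bottom, where 0.92% of all probes were called. That of Sars2 averaged 8.53. Dim partners were also kept in the count of same signs.

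Mrpl18 and Tcp1 start 238 bases apart, and the pair is named after its values were seen. Tcp1, a subunit of the cytosolic chaperonin, averaged 14.59 ± 0.15 in Xpc-/- B[a]P mice and 14.10 ± 0.14 in Xpc-/- control mice, and 14.67 ± 0.08 in Wt B[a]P mice and 14.13 ± 0.11 in Wt control mice (SD, n = 5 each). It rose by 0.52 (SE 0.07, limma adjusted p = 5.96e-05). Mrpl18 averaged 10.18 ± 0.19 in Xpc-/- B[a]P mice and 10.50 ± 0.26 in Xpc-/- control mice, and 10.20 ± 0.30 in Wt B[a]P mice and 10.42 ± 0.12 in Wt control mice. The 2 neighbours had changes of opposite sign, of which only that of Tcp1 passed the test.

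**Figure D5:**
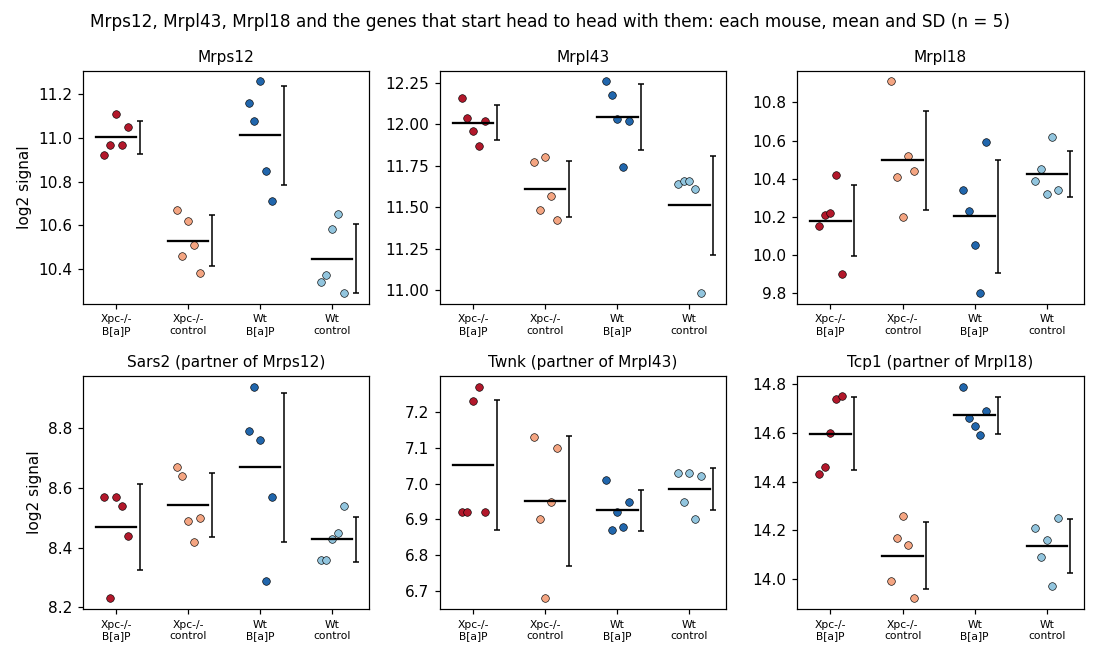
Log2 signals of Mrps12, Mrpl43 and Mrpl18 (top) and of the genes that start head to head with them, Sars2, Twnk and Tcp1 (bottom), are drawn for each mouse (points) with the group mean (line) and SD (bar, n = 5). Each panel has its own y axis. Exposed and control mice are separate for Mrps12 and Tcp1 and overlap for Sars2 and Twnk.

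Proteins of the mitoribosome that carry other names were measured for 4 genes. Chchd1, of the small subunit, rose by 0.32 (SE 0.09, limma adjusted p = 0.0329), with 13.21, 13.47, 13.14, 13.52 and 12.88 in Xpc-/- B[a]P mice, against 12.47, 12.95, 13.21, 12.84 and 13.15 in Xpc-/- control mice. In Wt B[a]P mice it read 13.14, 13.34, 13.27, 13.12 and 13.49, against 12.98, 13.02, 12.93, 12.91 and 12.96 in Wt control mice. The Wt groups did not overlap and the Xpc-/- groups did, and without Xpc-/- control 1 and 2 the change was 0.24 (adjusted p = 0.055). With each of the 20 mice left out in turn Chchd1 passed 10 times. It missed the threshold under an ordinary two-way analysis of variance. Dap3 (0.03) and Ptcd3 (0.08) of the small subunit and Gadd45gip1 (-0.30, adjusted p = 0.109) of the large subunit did not pass the test. Without the same pair, Dap3 had -0.13 (adjusted p = 0.314) and Gadd45gip1 fell by 0.42 (adjusted p = 0.00307).

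The other genes of mitochondrial translation were taken from lists. Of 18 translation factors and regulators 1 fell and none rose (5.56% called, median -0.03): Lrpprc, which binds mitochondrial messenger RNAs, changed by -0.36 (SE 0.08, limma adjusted p = 0.00701). Of 19 aminoacyl-tRNA synthetases and related genes 2 rose and 1 fell (15.8%, median 0.02). Rars2 for arginine changed by 0.32 (adjusted p = 0.0373), Yars2 for tyrosine by 0.26 (adjusted p = 0.0343) and Vars2 for valine by -0.27 (adjusted p = 0.0385). With each of the 20 mice left out in turn, these passed 9, 9 and 6 times in that order, and without Xpc-/- control 1 and 2 Vars2 had -0.22 (adjusted p = 0.0717). Of 27 assembly factors 2 fell and none rose (7.41%, median -0.03). These were the RNA helicase Dhx30 with -0.39 (adjusted p = 0.0261) and Rpusd4, which modifies the large ribosomal RNA, with -0.36 (adjusted p = 0.00477). Over all probes 5.68% were called and the median was -0.01.

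The cytosolic ribosome is built from a separate set of proteins. Of its 68 genes on the array 11 rose and 5 fell (23.5% called, against 5.68% of all probes and 16.1% of the brightest bin), and the median change was -0.01. Rpl7 and Rpl13a rose by 0.56 each, Rps3 and Rpl19 by 0.46 each, Rpl5 by 0.44, Rpl15 by 0.40, Rpl35a by 0.35, Rps18 by 0.34, Rpsa by 0.33, and Rpl26 and Rpl29 by 0.29 each. Rps13 fell by 0.41, Rplp1 by 0.36, Rps16 by 0.29, Rps19 by 0.27 and Rpl28 by 0.24. Without Xpc-/- control 1 and 2, Rpl35a had 0.20 (limma adjusted p = 0.0876) and Rps19 had -0.22 (adjusted p = 0.0711), and Rpl28 passed in 4 of the 20 fits with a mouse left out. Rpl35a passed in 10 of these fits, Rps19 and Rpl29 in 11 each and Rps16 in 13, and the other called genes passed in every one. As in the mitochondrial set, genes moved in both directions around a median near 0.

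Cell type markers were read beside these changes. Of the 10 marker lists, Sycp3 of spermatocytes rose by 0.40 (limma adjusted p = 0.00409, 1 of 6 markers), Tagln of peritubular myoid cells rose by 0.43 (adjusted p = 0.000536, 1 of 3), and Tssk2 of spermatids fell by 0.26 (adjusted p = 0.0401, 1 of 7). Over all probes 5.68% were called, and the other lists held no called marker. The average over the myoid markers ran from -0.11 to 0.29 in Xpc-/- B[a]P mice, against -0.15 to 0.02 in Xpc-/- control mice. It ran from 0.07 to 0.27 in Wt B[a]P mice, against -0.05 to 0.06 in Wt control mice. For spermatid markers the ranges were -0.14 to 0.05 in Xpc-/- B[a]P mice, against -0.06 to 0.05 in Xpc-/- control mice, and -0.27 to -0.01 in Wt B[a]P mice, against -0.06 to 0.06 in Wt control mice. For spermatocyte markers they were -0.07 to 0.09 in Xpc-/- B[a]P mice, against -0.13 to 0.06 in Xpc-/- control mice, and -0.03 to 0.07 in Wt B[a]P mice, against -0.12 to 0.07 in Wt control mice. None of the 5 Leydig cell markers passed the test (median change 0.26), and their average ran from 0.00 to 0.54 in Xpc-/- B[a]P mice, against 0.04 to 0.24 in Xpc-/- control mice, and from 0.18 to 0.45 in Wt B[a]P mice, against -0.71 to 0.92 in Wt control mice. At an unadjusted p under 0.05, 2 Leydig cell markers were higher and 0 lower, and 1 spermatocyte marker was higher and 1 lower. For spermatids 1 marker was lower, and for myoid cells and red blood cells 1 each was higher. The lists of spermatogonia, macrophages, endothelium and epididymis had none. Of the 7 Sertoli cell markers 3 were lower and 0 higher at an unadjusted p under 0.05, where 18.5% of all probes had such a p. Their average ran from -0.28 to -0.08 in Xpc-/- B[a]P mice, against -0.28 to 0.03 in Xpc-/- control mice. In Wt B[a]P mice it ran from -0.16 to -0.02, against -0.09 to 0.13 in Wt control mice. For Sertoli cell markers in Xpc-/- mice the overlap rested on Xpc-/- control 1 and 2, at -0.23 and -0.28. The other Xpc-/- control mice, at -0.03 to 0.03, lay above every exposed Xpc-/- mouse. The part of these cell types in the changes of the mitochondrial ribosomal protein genes was not tested.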

How the data were processed

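Testis RNA of each mouse was labelled with Cy5 and hybridized against a Cy3-labelled pool of 3 unexposed Wt mice that are not among the samples. The deposited values are the authors' own, in natural log units, after Imagene spot reading. Quantile normalization made the arrays alike in distribution, and each probe has a single value corrected for its reference signal. Subtraction of the local background is not stated. The deposited natural log values keep a signal level (median per array 5.23 to 5.24) and were divided by the natural log of 2, so all values and changes are log2. Raw spot signals and background flags were not used here. Dim probes therefore have no detection call.

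Symbols were taken from the platform table for the probes. All 76 probes of the set matched the RefSeq gene table (GRCm38.p6), and the brightest probe stands for a gene. The files name no build, so coordinates are those of RefSeq alone. Group means of all 20868 probes were fitted with limma 3.58.1 in R 4.3.3, and 7 contrasts were tested: B[a]P over both genotypes and within each, genotype over both treatments and within each, and the interaction. Benjamini-Hochberg adjustment ran over all probes, and called means an adjusted p under 0.05, after the false discovery rate of 5% in the study's methods. The fit was tested on simulated data. The number of arrays limits the precision. Tables were made with Python 3.11.15 and pandas 2.3.3.

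The genes and lists were chosen with earlier results of these data known. Mrpl1, Mrpl10, Mrpl14, Mrpl43, Mrpl53 and Mrps12 are among genes that the study listed from these samples, so their calls are not independent evidence. Named genes are those called in any contrast, the 5 largest rises and falls, the 3 brightest and dimmest probes, the smallest interaction and genotype p-values (2 each), genes whose probes disagree, called genes of the lists, and Xpc. Other genes were named after their values were seen. Alternatives were an ordinary two-way analysis of variance (the study's method), an intensity trend, dim probes left out, renewed quantile normalization, median centring, array weights, leaving out Xpc-/- control 1 and 2, a replicate block, leaving out each mouse, all probes of a gene, and subunits by structure.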

Additional observations from a re-analysis of the deposited data

Results flagged for a closer look

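The values of the 8 called genes and the 2 subunit averages were checked in each group of 5 mice for a mouse far from the others. Of 40 such checks 3 singled out a mouse, where chance alone does so for about 1 in 20. Mrpl43 read 10.98 in Wt control 5, against 11.61 to 11.66 in the other 4 Wt control mice. Mrpl53 read 11.04 in Xpc-/- B[a]P 2, against 11.39 to 11.44 in the rest of that group. The small subunit average was 0.04 in Wt B[a]P 5, against -0.03 to -0.01 in the other 4. Without these mice in turn, Mrpl43 and Mrpl53 still passed the test over both genotypes. No gene of the 75 moved one way in every Xpc-/- B[a]P mouse and the other way in every Wt B[a]P mouse.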

How the results depend on the processing

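With 8 genes called for B[a]P over both genotypes, the count was 6 under the two-way analysis of variance, without Mrpl34 and Mrpl35. Under the intensity trend it was 6, without Mrpl14 and Mrpl34. The count was 16 with array weights and 4 to 12 when each mouse was left out (4 without Wt control 4 or Wt control 5, 5 without Wt control 1 or Xpc-/- control 4, 12 without Xpc-/- control 3). In Wt mice it was 2, with 1 under the two-way analysis of variance and under the intensity trend, and 0 to 2 when each mouse was left out (0 without Wt control 5 or Wt B[a]P 1, 1 without Wt control 1, 2 or 4 or Wt B[a]P 2, 3 or 5). In Xpc-/- mice it was 1, with 0 under the intensity trend, 2 without Xpc-/- control 1 and 2 (Mrps12 and Mrpl20), and 0 to 1 when each mouse was left out (0 without Xpc-/- control 4 or 5 or Xpc-/- B[a]P 2, 3 or 4). All probes called over both genotypes were 1186, with 984 under the two-way analysis of variance and 1010 under the intensity trend. They were 2630 with array weights, 2401 without Xpc-/- control 1 and 2, and 763 to 1667 when each mouse was left out (763 without Wt control 4). No called change turned its sign. Of changes near 0, Mrpl40 had -0.04 and Dap3 -0.08 with array weights, -0.09 and -0.13 without Xpc-/- control 1 and 2, and with each mouse left out -0.02 to 0.07 for Mrpl40, -0.04 to 0.09 for Dap3, -0.01 to 0.04 for Twnk and -0.02 to 0.08 for Tmem63b. Mrpl34 passed in 4 of 8 other fits and 5 of 20 fits without a mouse, Mrpl14 in 5 and 5, and Mrpl35 in 6 of 7 and 9. Same-numbered mice of different groups deviated together no more than differently numbered ones. Their correlations ran from -0.227 to 0.323 (median 0.0002), against -0.369 to 0.369 (median 0.009) for different numbers. The replicate block gave 7 called genes, losing Mrpl34 and Mrpl14 and adding Mrpl55. Over all alternatives the median change ran from -0.10 to -0.04 in the large and from -0.05 to -0.01 in the small subunit, and from -0.10 to -0.07 in bacterial homologues and from -0.04 to 0.02 in mitochondria-specific proteins. The causes were not tested.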
